A study of Mus musculus with 4 samples.

Results

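Polyamines are small cations that every cell makes from ornithine and S-adenosylmethionine, and their supply is set in part at translation. Antizyme binds ornithine decarboxylase, the first enzyme of synthesis, and hands it to the proteasome, and it also limits polyamine uptake. Its own mRNA carries a stop codon early in the coding sequence, and full-length antizyme is made only when the ribosome slips forward by a base there, which happens more often when polyamines are plentiful. Antizyme inhibitor resembles ornithine decarboxylase without its activity and draws antizyme away from it. Antizyme inhibitor, ornithine decarboxylase and S-adenosylmethionine decarboxylase carry short reading frames upstream of the main one, which polyamines use, or are thought to use, to hold back ribosomes on the way to the main frame.

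Of 31053 genes in the count tables, 8 of this system were described. They were 2 antizymes that need the frameshift (Oaz1, Oaz2), 3 genes with a regulatory upstream frame (Azin1, Odc1, Amd1) and 3 further enzymes (Sat1, Srm, Sms). The rule names them by function and uses no measured value, though it was written with earlier results of these data known. They were found by matching Ensembl identifiers to GENCODE M21 symbols. All 8 passed the filter on low counts that left 12336 genes for testing.

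The cells were primary cortical neurons of wild-type mice, which the study's methods describe as grown from E18 C57BL/6J cortices with floxuridine against dividing cells. Enhanced crosslinking and immunoprecipitation (eCLIP) fixes RNA to protein in the cell, trims it with RNase I and recovers it with an antibody, here one against endogenous RPS2, which belongs to the small subunit of the ribosome. The groups were 2 libraries of RPS2 IP and 2 of total RNA, which was drawn from those samples before the pulldown, with no treatment or genetic change separating the cells. The labels give ribosomal RNA depletion for the IP and no treatment for total RNA, whereas the methods describe depletion after library preparation without naming the libraries. If the labels hold, that step and the IP cannot be told apart. Nothing in the labels says that the replicates were separate cultures, so the spread between these samples may be technical. The p-values of fits without pairing rest on that spread. In the edgeR fit with the replicate number as a block, they lean on a dispersion trend shared over genes.

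The sequences at which ribosomes meet the antizyme control point are shown because both antizymes hold nearly the same one. They were read from the GENCODE M21 transcripts (mm10, plus strand for both), with the last codon of the first frame and the stop codon in capitals. The Oaz1 site lies in exon 2 of the transcript used at chr10:80828280-80828309 and the Oaz2 site in exon 3 of its transcript at chr9:65686257-65686286.

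Oaz1: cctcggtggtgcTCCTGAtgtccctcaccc

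Oaz2: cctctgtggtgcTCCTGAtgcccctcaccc

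These stretches shared 28 of 30 bases, and from the codon before the stop onward they shared 17 of 18. The stop came after 68 codons in Oaz1 and after 32 codons in Oaz2. The annotation skips 1 base at this point in each gene, and 477 and 471 coding bases follow. The first frame is thus shorter than the coding sequence after it in both genes.

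Amd1 carries the short upstream frame that is known to stall ribosomes when polyamines are high, shown here with its start and stop codons in capitals. It lies in exon 1, within the 5′ untranslated region, at chr10:40302155-40302175 on the minus strand of mm10.

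Amd1: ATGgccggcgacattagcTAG

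The frame starts at base 12 of the transcript and holds 6 codons before its stop. The intronless copy Amd2 has the identical 21 bases at chr10:35711860-35711880. In the transcript used, Azin1 had 3 upstream ATG codons, whose frames ran 17, 7 and 9 codons, and Odc1 had 2, of 8 and 10 codons. Oaz1, Oaz2 and Srm had 0 upstream ATG codons, Sat1 had 2 and Sms had 4. An upstream ATG is common, with at least 1 in 53.0% of the 12135 tested protein-coding genes with a complete coding transcript. Frames that start at other codons were not counted, so the regulatory frame of Azin1 or Odc1 need not be among those listed. A count per gene does not say where along the mRNA a read lay, so ribosomes before and after the frameshift, or on an upstream frame, were not separated here.

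The libraries held 16460545 and 9941486 counts (IP replicates 1 and 2) and 5281196 and 4899718 counts (total RNA). The 8 genes together took from 0.0156% to 0.0344% of a library. All 10 neuronal marker genes were detected in every library, and their summed level ran from 3913 to 4673 CPM (counts scaled to a common effective library size). Markers of astrocytes and microglia were higher in replicate 1. The 6 astrocyte markers summed to 2081 and 1729 CPM in the IP and total RNA of replicate 1 and to 687 and 666 CPM in replicate 2, with 0 of 6 undetected in any library. The 6 microglial markers summed to 60.4 and 60.1 CPM in replicate 1, and in replicate 2 to 6.83 CPM with 3 undetected and 4.93 CPM with 4 undetected. Over the 4 libraries the oligodendrocyte markers summed to 37.2 to 46.8 CPM, the endothelial markers to 1.17 to 2.89 CPM and the markers of dividing cells to 0.36 to 2.67 CPM. Gm42418, annotated as a lincRNA and singled out after its values were seen, took 15.3% to 42.6% of the counts. Its share was higher for replicate 1 (IP 42.6%, total RNA 39.8%) than for replicate 2 (IP 27.9%, total RNA 15.3%). Within each replicate the IP share was the larger. The study removed cells by their counts of this gene in its single-cell data. Whether ribosomal RNA depletion bears on the share was not tested.

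The comparison asks how much of each mRNA was recovered with the ribosomal protein for its amount in total RNA, a ratio that the study used as a measure of translational efficiency. In the fit without pairing (edgeR quasi-likelihood test, Benjamini-Hochberg over 12336 genes), 0 of the 8 genes were called at an adjusted p under 0.05. Over all genes the call rate was 0%, and the same fit gave 0 of 8 at an unadjusted p under 0.05, against 2.83% of all genes. DESeq2 without pairing called 0 of 8, and over all 12336 genes it called 0 higher and 5 lower. With the replicate number as a block, 2 of the 8 genes, Azin1 and Sat1, were called higher in the IP and 0 lower, against 6.63% higher and 7.55% lower over all genes. At an unadjusted p under 0.05 the blocked fit gave 3 of 8, against 26.1% of all genes, the third being Amd1. The blocked limma-voom fit called 1 of the 8, higher, against 5.55% of all genes higher and 7.51% lower. The blocked DESeq2 fit called 0 of the 8, but Amd1, Sat1 and Sms had no adjusted p there and could not be called. Of all 12336 genes it called 158 higher (1.28%) and 382 lower (3.1%). It gave no adjusted p for 7653 of these genes, so the shares understate the rate among genes that could be called. The blocked calls over all genes numbered 818 higher and 931 lower with TMM scaling, 283 and 878 when scaled by library totals alone, and 516 and 359 with GC content and length offset.

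The median log2 change of the 8 genes in the blocked fit was 0.06, beside 0.01 over all genes tested. By group, the same fit gave a median of -0.01 for the antizymes, 0.45 for the upstream-frame genes and -0.07 for the other enzymes. Each of those medians rests on 2 or 3 genes, which moved unequally.

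**Figure D1:**
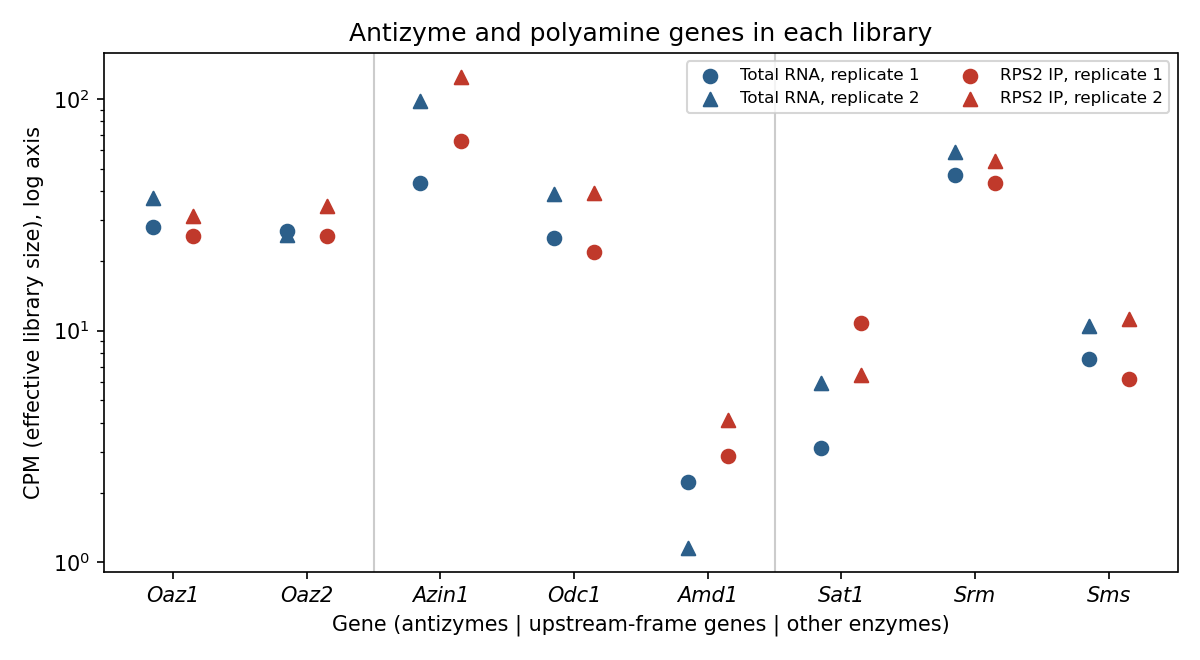
CPM by effective library size (log axis) of the 8 genes in each library, with total RNA in blue, IP in red, circles for replicate 1 and triangles for replicate 2. The IP symbols lie above both total RNA symbols for Amd1 and Sat1 only, and for Azin1 the circle-to-triangle distance is wider than the distance between colours.

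Oaz1 (ENSMUSG00000035242, mm10 chromosome 10, 80826656 to 80829290) encodes the antizyme present in most tissues. It had 25.5 and 31.2 CPM in the IP libraries (353 and 347 counts) and 28.1 and 37.5 CPM in total RNA (126 and 228 counts). The IP values were below total RNA within both pairs, and the groups overlapped. Below in both pairs also held for 32.2% of all genes. The log2 ratio of IP to total RNA was -0.14 in pair 1 and -0.26 in pair 2. The fit gave -0.21 ± 0.25 (SE) without the block and -0.21 ± 0.14 with it (2 libraries a group). Its adjusted p with the block was 0.383 by edgeR's quasi-likelihood test, and the 95% interval ran from -0.49 to 0.08.

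Oaz2 (ENSMUSG00000040652, chromosome 9, 65668001 to 65690300) encodes a second antizyme with the same action on ornithine decarboxylase. It had 25.6 and 34.4 CPM in the IP (354 and 383 counts) and 26.9 and 25.8 CPM in total RNA (121 and 157 counts). The pairs went opposite ways, at -0.07 and 0.41 on the log2 scale, and IP replicate 2 was the library apart. The blocked fit gave 0.18 ± 0.15 (SE), with an adjusted p of 0.470 from edgeR and a 95% interval from -0.11 to 0.48. The mRNAs that share the site printed above thus had ratios on either side of 0, and neither passed the test.

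Azin1 (ENSMUSG00000037458, chromosome 15, 38487427 to 38519266) encodes antizyme inhibitor 1 and had the highest counts of the 8 genes except in total RNA replicate 1, where Srm had more. It had 65.6 and 124.9 CPM in the IP (908 and 1391 counts) and 43.4 and 98.3 CPM in total RNA (195 and 598 counts). Replicate 2 was higher in both groups, so the groups overlapped, yet the IP was above total RNA within each pair, as in 34.3% of all genes. The log2 ratio was 0.59 in pair 1 and 0.35 in pair 2. Without the block the difference was 0.42 ± 0.49 (SE), smaller than the spread between replicates. With it the difference was 0.45 ± 0.11 (SE, 1.37-fold), with an adjusted p of 0.00119 in edgeR.

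The Azin1 call held in 4 of 7 blocked fits, at adjusted p-values from 6.2e-04 to 0.187 over all 7. Apart from limma-voom, those 4 were edgeR with TMM scaling and differed only in the genes kept. Among them, the fit without Gm42418 was added after the data were seen. The call was lost in DESeq2 (adjusted p = 0.0748) and with scaling by library totals alone (0.0764). It was also lost in the fit offset for GC content and length, where edgeR gave 0.24 ± 0.11 (SE) and an adjusted p of 0.187. Without the block, leaving out IP replicate 2 gave -0.13 and leaving out total RNA replicate 2 gave 1.13, so single libraries set its direction there. With IP replicate 1 left out the value was 0.81, and with total RNA replicate 1 left out it was -0.05.

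Odc1 (ENSMUSG00000011179, chromosome 12, 17544794 to 17551505) encodes ornithine decarboxylase, the target of antizyme. It had 21.9 and 39.2 CPM in the IP (303 and 436 counts) and 25.2 and 39.0 CPM in total RNA (113 and 237 counts). The values fell into pairs by replicate, not by group. The log2 ratio was -0.20 in pair 1 and 0.01 in pair 2, and the blocked fit gave -0.08 ± 0.14 (SE, 95% interval -0.36 to 0.20), with an adjusted p of 0.774 from edgeR.

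Amd1 (ENSMUSG00000075232, chromosome 10, 40287458 to 40302186) encodes S-adenosylmethionine decarboxylase, which supplies the aminopropyl groups of spermidine and spermine. It had 2.89 and 4.13 CPM in the IP (40 and 46 counts) and 2.23 and 1.15 CPM in total RNA (10 and 7 counts). Both IP libraries were above both total RNA libraries, as in 16.9% of all genes. The log2 ratio was 0.35 in pair 1 and 1.66 in pair 2. The SE of the blocked fit leans on a dispersion trend shared over genes, not on the distance between these pairs. That fit gave 1.09 ± 0.49 (SE), with an adjusted p of 0.120 from edgeR. With 7 and 10 counts in total RNA, a difference of this size did not pass the test at this depth.

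**Figure D2:**
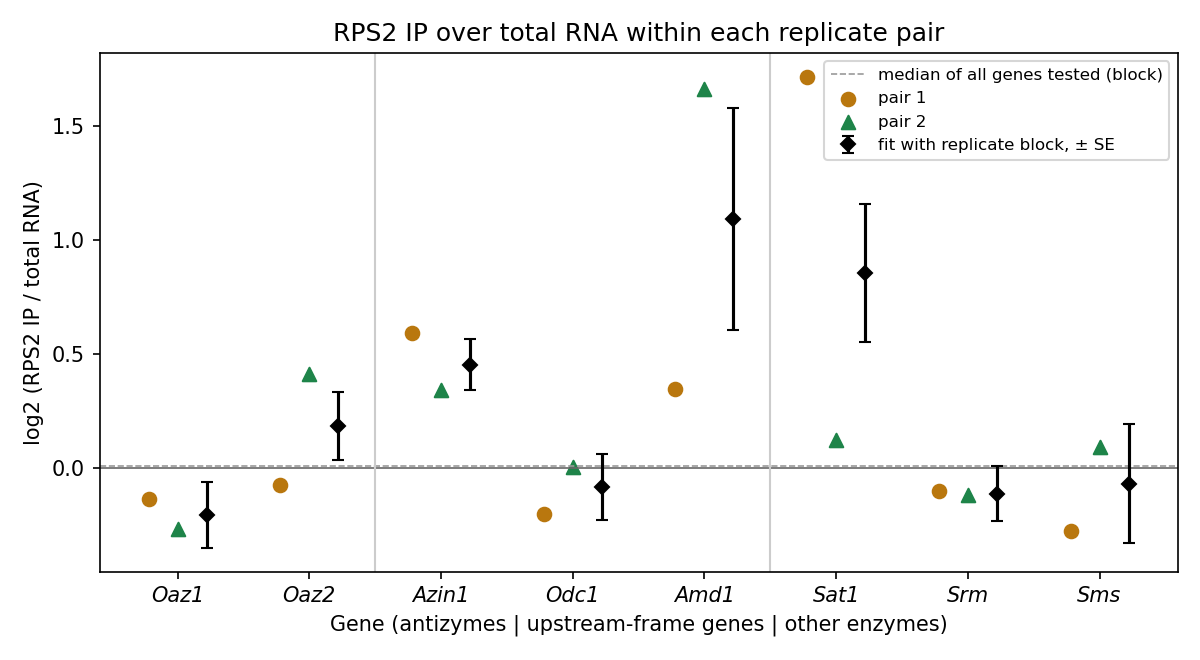
Log2 ratio of RPS2 IP to total RNA for the 8 genes in pair 1 (circles) and pair 2 (triangles), with the blocked edgeR estimate ± SE (diamonds) and the median of all genes tested (dashed line, 0.01). Azin1 lies above 0 in both pairs at 0.59 and 0.35, while Sat1 and Amd1 each rest mainly on a single pair.

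Sat1 (ENSMUSG00000025283, chromosome X, 155213132 to 155216449) encodes the acetyltransferase that marks spermidine and spermine for breakdown and export. It had 10.8 and 6.47 CPM in the IP (149 and 72 counts) and 3.12 and 5.92 CPM in total RNA (14 and 36 counts). Both IP values were above both total RNA values, as in 16.9% of all genes, but the log2 ratio was 1.72 in pair 1 and 0.12 in pair 2. The difference was 0.91 ± 0.46 (SE) without the block and 0.85 ± 0.30 with it, with an adjusted p of 0.0366 from the blocked edgeR fit. As for Amd1, the blocked SE leans on the shared dispersion trend, not on the distance between the pairs. The call held in 3 of 7 blocked fits, all of them edgeR with TMM scaling that differed only in the genes kept. It was lost in limma-voom (adjusted p = 0.0732), with library totals alone (0.0927) and after the offset (0.63, adjusted p = 0.222), and DESeq2 gave no adjusted p.

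In total RNA of replicate 1, where Sat1 stood at 3.12 CPM (14 counts), the microglial markers summed to 60.1 CPM. In the IP of replicate 1, where Sat1 stood at 10.8 CPM (149 counts), they summed to 60.4 CPM. The astrocyte markers of the same libraries summed to 1729 and 2081 CPM. Their part in the Sat1 result was not tested.

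Srm (ENSMUSG00000006442, chromosome 4, 148591503 to 148594993) encodes spermidine synthase. It had 43.6 and 54.2 CPM in the IP (603 counts in each library) and 46.8 and 58.9 CPM in total RNA (210 and 358 counts). The pairs were close, with log2 ratios of -0.10 and -0.12, and the blocked fit gave -0.11 ± 0.12 (SE), with an adjusted p of 0.614 from edgeR.

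Sms (ENSMUSG00000071708, chromosome X, 157443855 to 157492287) encodes spermine synthase. It had 6.22 and 11.2 CPM in the IP (86 and 125 counts) and 7.57 and 10.5 CPM in total RNA (34 and 64 counts). Its log2 ratios were -0.28 and 0.09, and the blocked fit gave -0.07 ± 0.26 (SE), with an adjusted p of 0.911 from edgeR. The 95% interval of Sms, from -0.58 to 0.44, was wider than that of Srm, from -0.35 to 0.13.

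The antizymes were then set against the upstream-frame genes. The mean log2 ratio of Oaz1 and Oaz2 lay below that of Azin1, Odc1 and Amd1 by 0.35 in pair 1 (-0.35) and by 0.60 in pair 2 (-0.60). The fit gave a difference of -0.49 without the block and -0.50 with it. Much of the difference came with Amd1, the gene with the fewest counts. Against Azin1 and Odc1 alone, a comparison added after the values were seen, pair 1 gave -0.30 and pair 2 gave -0.10. That smaller difference was -0.06 after the GC and length offset, and it ran from -0.62 to 0.13 when single libraries were left out. With 2 pairs of libraries no permutation test can pass a threshold of 0.05, and none was run.

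Ratios of a gene to another within a library need no scaling of the library, so each antizyme was also compared with each upstream-frame gene in raw counts. The ratio of Oaz1 to Azin1 was lower in the IP than in total RNA in both pairs. The log2 difference was -0.73 in pair 1 (95% counting interval -1.10 to -0.36) and -0.61 in pair 2 (-0.89 to -0.33), a mean of -0.67 ± 0.09 (SD, n = 2 pairs). For Oaz2 against Azin1 the difference was -0.67 in pair 1 (-1.04 to -0.30) and 0.07 in pair 2 (-0.23 to 0.37). The first antizyme thus differed from Azin1 in each pair beyond counting error, and the second in pair 1 only. These raw ratios carry no correction for GC content or length. With that offset the blocked log2 changes were -0.18 for Oaz1 and 0.24 for Azin1, against -0.21 and 0.45 without it.

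Against Odc1, Oaz1 differed by 0.06 and -0.27 and Oaz2 by 0.13 and 0.41. Of these 4 intervals, only that of Oaz2 in pair 2 excluded 0 (0.06 to 0.76), and there the antizyme was the higher. Against Amd1 the intervals were wide. For Oaz1 the values were -0.51 (-1.56 to 0.53) and -2.11 (-3.28 to -0.94), and for Oaz2 they were -0.45 (-1.49 to 0.59) and -1.43 (-2.61 to -0.25). Of the 6 antizyme and upstream-frame combinations, 3 were lower for the antizyme in both pairs, and 1 was higher in both. An interval excluding 0 in both pairs was found for 1. These combinations share genes, and no share over all pairs of genes was computed beside them.

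**Figure D3:**
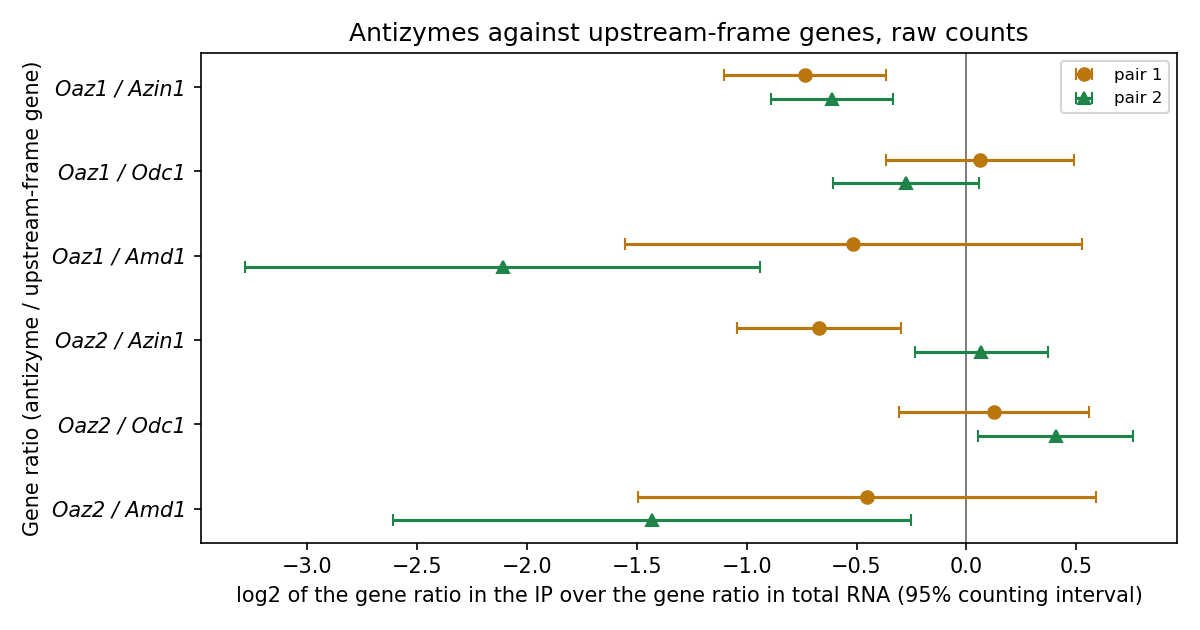
Log2 of the ratio of an antizyme to an upstream-frame gene in the IP over the same ratio in total RNA, from raw counts, for pair 1 (circles) and pair 2 (triangles) with 95% counting intervals. Oaz1 over Azin1 is below 0 in both pairs (-0.73 and -0.61), Oaz2 over Odc1 is above 0 in both (0.13 and 0.41), and the Amd1 ratios have the widest intervals.

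The upstream-frame genes differed among themselves. The ratio of Azin1 to Odc1 was higher in the IP by 0.80 in pair 1 (0.41 to 1.18) and by 0.34 in pair 2 (0.07 to 0.61). The ratio of Azin1 to Srm, which has no upstream ATG, was higher by 0.70 (0.38 to 1.02) and 0.47 (0.23 to 0.70). The antizymes differed from each other in pair 2 alone, where Oaz1 over Oaz2 was lower by 0.68 (-0.68, interval -1.04 to -0.32) after -0.06 in pair 1. Of all 28 combinations of the 8 genes, 18 had the same sign in both pairs. Intervals of 3 excluded 0 in both with the same sign, and each of these involved Azin1. Combinations that share a gene are not independent, and the shares over all pairs of genes were not computed, so these counts are descriptive. Counting intervals do not cover differences between cultures or PCR duplicates, and the intervals were not adjusted for the 28 combinations.

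The genes differed in base composition. The G and C content of the transcripts was 39.3% for Azin1, 41.4% for Amd1 and 44.3% for Sat1, the genes with the highest blocked estimates, and 43.5% for Sms, at -0.07. Oaz1 had 56.7%, Srm 59.8%, Oaz2 53.2% and Odc1 52.4%, and the median over the protein-coding genes tested was 50.8%. The blocked fit with the offset kept the sign of all 8 estimates and called 0 of them. The median log2 change over all genes moved from 0.0108 to 0.0036 with that offset. The part of base composition in the single ratios was not tested further.

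Replicates differed more than groups for several members. From replicate 1 to replicate 2 the Azin1 level differed by 0.93 in the IP and by 1.17 in total RNA on the log2 scale, and the Odc1 level by 0.83 and 0.63. For Oaz1 the differences were 0.29 and 0.41, and for Srm 0.31 and 0.33. The median over the 8 genes was 0.45 in the IP and 0.44 in total RNA, beside -0.002 and -0.014 over all genes tested. Most of the 8 genes thus lay higher in replicate 2, in which the astrocyte and microglial marker sums were lower (687 and 6.83 CPM against 2081 and 60.4 CPM in the IP). The part of those cells in the replicate difference was not tested, and in bulk samples fewer cells of a type and less RNA per cell cannot be told apart. The exceptions were Amd1 in total RNA (-0.83, after 0.48 in the IP), Sat1 in the IP (-0.72, with 0.88 in total RNA) and Oaz2 in total RNA (-0.06, with 0.42 in the IP).

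Levels of different genes were compared per kilobase of the exonic length over which reads were counted. In the IP the order by CPM per kilobase was Srm, Azin1, Oaz1, Oaz2, Odc1, Sat1, Sms and Amd1. Srm stood at 30.6 ± 4.67 (SD, n = 2) and Azin1 at 15.2 ± 6.70, and these ranges did not overlap. Azin1, Oaz1 at 11.1 ± 1.56, Oaz2 at 10.03 ± 2.08 and Odc1 at 8.97 ± 3.58 each overlapped their neighbour. Sat1 followed at 3.11 ± 1.10, then Sms at 1.45 ± 0.59 and Amd1 at 0.99 ± 0.25, the last pair overlapping.

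In total RNA the order by CPM per kilobase had Oaz1 ahead of Azin1. Srm stood at 33.0 ± 5.35 (SD, n = 2), Oaz1 at 12.8 ± 2.60, Azin1 at 11.3 ± 6.20, Odc1 at 9.42 ± 2.86 and Oaz2 at 8.82 ± 0.27. Oaz1 to Oaz2 overlapped from neighbour to neighbour, so the exchanged places of Azin1 and Oaz1 lie within the spread of the libraries. Sat1 at 1.63 ± 0.71 and Sms at 1.51 ± 0.35 overlapped as well, and Amd1 was last at 0.48 ± 0.21.

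The length used moves these levels. Counted exons of Oaz1 cover 2558 bases, whereas its coding transcript has 1044. Per kilobase of the coding transcript, Oaz1 came to 27.1 ± 3.84 CPM (SD, n = 2) in the IP, second after Srm at 36.5 ± 5.59, and to 31.4 ± 6.38 in total RNA, where its range overlapped that of Srm at 39.5 ± 6.38. By that length 12 of 16 levels moved by more than their SD.

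Sequence shared with other genes bears on all these levels, since a read that fits several loci was not counted. Of the 50-base windows of the transcript, 53.9% for Oaz1 also occurred in another gene, chiefly its pseudogene Oaz1-ps. The share was 87.6% for Amd1 (Amd2), 42.2% for Odc1, 28.7% for Sms (Sms-ps), 11.98% for Oaz2, 7.28% for Sat1 and 2.4% for Srm. Azin1 had 0%. The counts of Amd1, Oaz1 and Odc1 are uncertain for that reason, and the levels of the antizymes against Azin1 per kilobase are affected by it. Whether uncounted reads were an equal share in IP and total RNA was not tested. The microRNA Mir1982 lies in the counted exons of Oaz1, and Azin1 overlaps Gm49077 on the opposite strand.

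The genes whose profile over the 4 libraries was nearest to that of Oaz1 were sought among the 5002 genes whose counts reached 100 in each library. They were Amph, Ddx54 and Tbc1d1, at root mean square distances of 0.0138, 0.0153 and 0.0172 on the log2 scale. For Azin1 they were Ppme1 (0.0182), Hpcal4 (0.0503) and Syt4 (0.0691). Ppme1, which encodes a methylesterase of protein phosphatase 2A, had 150.2 and 285.7 CPM in the IP against 99.1 and 231.1 CPM in total RNA. Its steps between replicates and between groups were close to those of Azin1, as choosing by distance requires.

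Beyond the 8 genes, 24 further genes of polyamine supply, breakdown, transport and use were listed, and 17 passed the filter on low counts. Without the block edgeR called 0 of them, against 0% of all genes, with 1 at an unadjusted p under 0.05, against 2.83%. DESeq2 without the block also called 0, and over all genes it called 0 higher and 5 lower. The blocked fit called 2 of the 17 higher and 1 lower, against 6.63% and 7.55% of all genes. The median log2 change of the 17 was 0.17, beside 0.01 over all genes. The 7 genes not tested were Oaz3, Amd2, Arg1, Agmat, Satl1, Atp13a4 and Atp13a5, and none of these had more than 20 counts in a library. Oaz3, the antizyme of developing sperm cells, had 2 and 0 counts in the IP against 0 and 1 in total RNA.

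Eif5a encodes the translation factor whose hypusine residue is made from spermidine. It had 99.7 and 159.6 CPM in the IP and 78.4 and 105.0 CPM in total RNA, above within both pairs while the groups overlapped. The blocked edgeR fit gave 0.48 ± 0.11 (SE) and an adjusted p of 2.22e-04. The call held in 6 of 7 blocked fits, the exception being library totals alone (0.0508). Dhps and Dohh, the enzymes that make hypusine, had blocked log2 changes of 0.17 ± 0.19 and -0.26 ± 0.24 and did not pass the test. Reads of Dohh are uncertain, since 47.5% of its exonic bases lie in Gm48551 on the same strand. The related Eif5a2 stood at 0.18 ± 0.40.

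Mat2a encodes the synthetase of S-adenosylmethionine, the substrate of Amd1. It had 40.0 and 25.1 CPM in the IP and 30.7 and 18.6 CPM in total RNA, and the replicate step ran opposite to that of Azin1. The blocked fit gave 0.40 ± 0.15 (SE), with an adjusted p of 0.0489 from edgeR, and the call held in 2 of 7 blocked fits. Mat2b, its regulatory partner, had both IP libraries above total RNA (40.2 and 33.8 against 30.5 and 29.1 CPM), as in 16.9% of all genes, and a blocked change of 0.30 ± 0.14, which did not pass.

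Atp13a2 encodes the lysosomal exporter of polyamines and was the listed gene called lower. It had 246.4 and 176.1 CPM in the IP against 422.6 and 289.5 CPM in total RNA, with no overlap, as for 14.9% of all genes. The blocked edgeR fit gave -0.75 ± 0.10 (SE), with an adjusted p of 1.14e-11. The call held in 7 of 7 blocked fits, and after the offset the value was -0.36 with an adjusted p of 0.00595 (edgeR), its transcript holding 62.4% G and C. Atp13a3, a plasma membrane relative, stood at -0.07 ± 0.15 and did not pass.

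The other transport and breakdown genes did not pass the test in the blocked edgeR fit. Slc3a2, a chain of amino acid transporters linked to polyamine export, had 395.4 and 390.1 CPM in the IP and 397.0 and 394.8 CPM in total RNA, with a blocked change of -0.01 ± 0.10 (SE). Slc7a1, which imports arginine and ornithine, stood at 0.20 ± 0.10 and was called in 1 of 7 blocked fits, that with the offset. Paox, the oxidase that acts on acetylated polyamines made by Sat1, had 52 and 36 counts in the IP against 11 and 5, with 1.18 ± 0.49, and did not pass. Of the 50-base windows of its transcript, 28.8% also occurred in another gene, so its counts are uncertain. Smox, which oxidises spermine, stood at -0.11 ± 0.13, and Azin2, the second antizyme inhibitor, at -0.19 ± 0.15, neither past the test. The remaining genes, none of which passed, stood at 0.20 ± 0.35 (Arg2), -0.12 ± 0.35 (Mtap), 0.10 ± 0.32 (Slc18b1) and 0.76 ± 0.51 (Sat2).

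**Figure D4:**
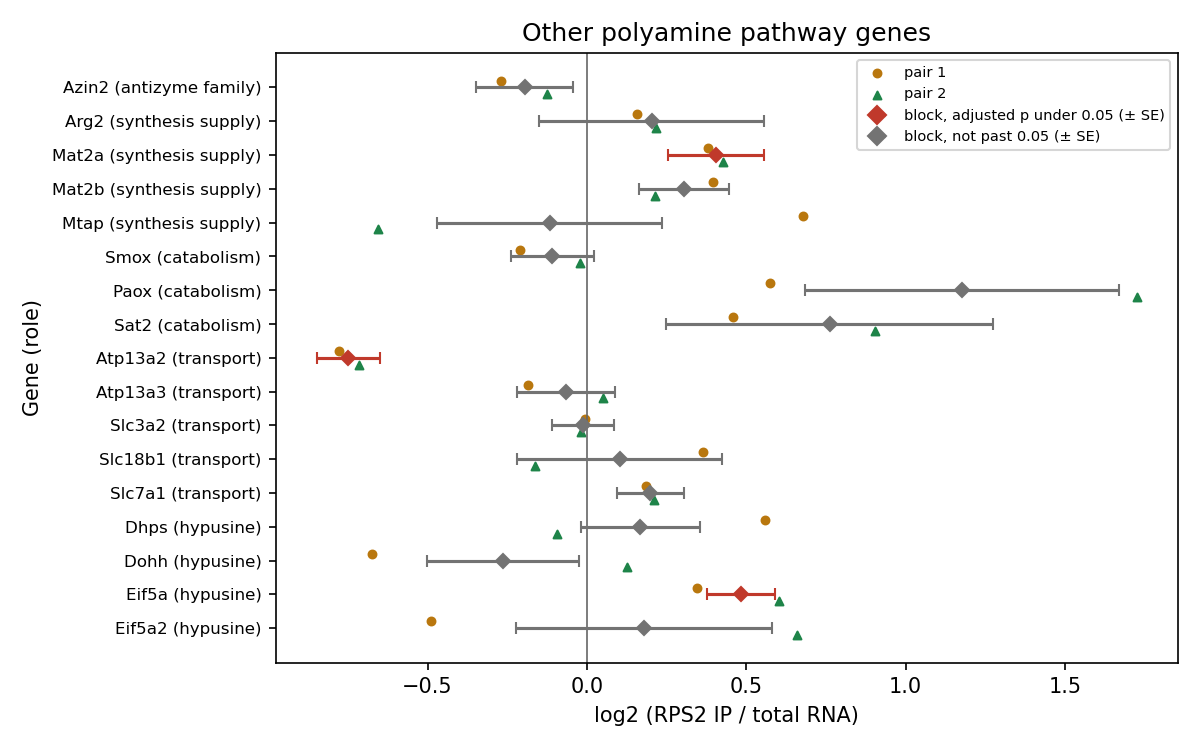
Log2 ratio of RPS2 IP to total RNA for the 17 other polyamine genes tested, as blocked edgeR estimates ± SE (diamonds, red where the adjusted p was under 0.05) with pair 1 (circles) and pair 2 (triangles). Eif5a and Mat2a lie above 0 and Atp13a2 below 0 in both pairs, and the genes with few counts have the widest bars.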

How the data were processed

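Gene-level counts of 2 RPS2 IP and 2 total RNA libraries were analysed. The authors deposited raw read counts per gene with the exonic length of each gene in bases, an annotation value from their counting tool. Per the file headers, they were made with featureCounts 1.5.3 in stranded mode on mm10, with reads at several loci or in several genes left uncounted. The study's methods name cutadapt for trimming and STAR for alignment, and no removal of PCR duplicates is named, so intervals cover counting error only.

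Of 31053 identifiers, 31011 had a symbol in GENCODE M21. Counts were fitted in R 4.3.3 with edgeR 4.0.16 (filterByExpr, TMM, glmQLFit, glmQLFTest, two-sided, Benjamini-Hochberg over 12336 genes, threshold 0.05). CPM use effective library sizes, and pair ratios a prior count of 2. The fit without a block was the one set at the start. Since the methods say that total RNA was set aside from the IP samples, and deviations of same-numbered libraries had a correlation of 0.733 across genes, a blocked fit is given beside it. That fit has 1 residual degree of freedom per gene and an infinite prior, so its p-values lean on the shared dispersion trend. The SE of an edgeR estimate was worked back from its log2 change and the F statistic of the test. The 95% intervals of those estimates are normal approximations from that SE. Ratios of ratios used raw counts with a normal interval at 95% on the log scale. Sequence features came from GENCODE transcripts, 1 coding transcript per gene, and GC content for the offset covered 12328 genes. DESeq2 1.42.0 and limma 3.58.1 served as alternatives.

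The genes described, the pathway list and the cell type markers were chosen with earlier results of these data known. Named genes were the 8 genes, the pathway list, and the 3 nearest profiles for Oaz1 and Azin1. Proteins were not used here.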

Additional observations from a re-analysis of the deposited data

How the results depend on the processing

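The calls rested on pairing. The blocked DESeq2 fit could not call the 7653 genes to which it gave no adjusted p, Amd1, Sat1 and Sms among them. Genes of the 8 called higher in the IP numbered 0 without the block (0 of 12336 genes overall). With it they numbered 2 in edgeR (818 overall), 1 in limma-voom (685), 2 at 10 or more counts in every library (878 of 10885), 2 without Gm42418 (820 of 12497, added after seeing the data), and 0 in DESeq2 (158), with library totals alone (283) and with the GC and length offset (516). The further pathway genes called higher went from 0 to 2 with the block and, in the same blocked fits, were 1 in limma-voom, 2 at 10 or more counts, 1 without Gm42418, 1 in DESeq2, 0 with library totals alone and 2 with the offset. Genes called lower there went from 0 to 1 in each of the 7 blocked fits, in which 359 to 947 genes were lower overall. The antizyme minus upstream-frame difference, -0.49, became -0.19 at 10 or more counts in every library and -0.20 there with the block, since Amd1 was not tested, and ran from -0.65 to -0.25 when 1 library was left out.

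Leaving out 1 library turned the sign of uncalled log2 changes. These fits had no block and left 1 library in a group, so the difference between replicates enters the value. The ranges were -0.40 to 0.011 for Oaz1, -0.055 to 0.38 for Oaz2, -0.13 to 1.13 for Azin1, -0.57 to 0.28 for Odc1, -0.29 to 0.060 for Srm and -0.56 to 0.31 for Sms. In the pathway list they were -0.47 to 0.80 for Arg2, -0.68 to 0.72 for Mtap, -0.37 to 0.11 for Smox, -0.18 to 0.38 for Slc18b1, -0.35 to 0.88 for Dhps and -0.60 to 0.74 for Eif5a2. The blocked fit with the offset turned Arg2 to -0.092, Smox to 0.046, Slc3a2 to 0.015, Slc18b1 to -0.061 and Eif5a2 to -0.077. No filter on low counts turned Slc3a2 to 0.011, and library totals alone turned Dhps to -0.023. The cause of the turns under the offset, the filter and the library totals was not tested. With 1 library left out and no block, the ranges were 0.65 to 1.60 for Amd1 (1.07 with all libraries), 0.50 to 1.46 for Sat1 (0.91), 0.03 to 0.81 for Mat2a (0.41), 0.11 to 0.80 for Eif5a (0.50) and -1.02 to -0.45 for Atp13a2 (-0.75), with no change of sign. Amd1, Sat1 and Sms had at most 149 counts in any library.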
